A study of Mus musculus with 6 samples.

Results

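The genes described here are 31 genes of glucose use and of the response to low oxygen, out of 42396 genes in each count table. They were taken by symbol: 2 glucose transporters, 14 glycolytic enzymes, 4 genes of the lactate and pyruvate branch, the hypoxia factor gene Hif1a with 2 of the hydroxylases that act on it, and 8 other hypoxia targets. The rule uses no measured value, though the list was drawn up with earlier results of these data known, and all 31 were found in the tables. The libraries came from primary cultures of ventral midbrain, the part of the brain where dopamine neurons form, made from wild-type mouse embryos at embryonic day 14. Both groups were infected with lentivirus on the day of plating, at a multiplicity of infection of 5. Controls (3 libraries) received a vector with a scrambled hairpin, and the knockdown group (3 libraries) a vector with a hairpin against circRmst, a circular RNA of the gene Rmst. RNA was taken at 3 days in vitro and sequenced after removal of ribosomal RNA.

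Both groups carry a viral hairpin vector and uninfected cultures are not analysed here, so a response common to both vectors would not show. The labels call the cells dopamine neurons, and all 8 dopamine neuron markers checked passed the filter on low counts, with a summed level of 431 to 517 CPM, which are counts scaled to library size, in the 6 libraries. Markers of astrocytes and radial glia summed to between 1515 and 1850 CPM and general neuronal markers to between 3841 and 4825 CPM, so transcripts of several cell types were present. In such bulk RNA, fewer cells of a type and less RNA per cell cannot be told apart. The replicate numbers 1 to 3 occur in both groups, and the labels mention 3 independent cultures without saying what a number shares. P-values therefore measure only the spread between these libraries. Depth ran from 27248934 to 43646521 counts a library. Values by library are listed in the order of replicates 1, 2 and 3 of a group. Rmst itself had 115, 117 and 124 CPM in the controls and 105, 97.1 and 115 CPM in the knockdown libraries. Its log2 fold change was -0.16 ± 0.10 (SE), and gene counts do not separate the circular from the linear RNA, so they do not check the knockdown.

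Glycolysis splits glucose into pyruvate in the cytosol through a fixed series of enzymes, and most steps have several isozymes encoded by separate genes. Pyruvate then enters mitochondria or is turned into lactate. When oxygen is low, the prolyl hydroxylases that mark the protein HIF-1alpha for destruction slow down, and the stabilised factor binds short DNA motifs and raises transcription of glucose transporters, glycolytic enzymes and other targets. HIF-1alpha is set mainly at the level of protein, so the RNA of its targets is commonly read as the sign of its activity. Neurons in culture take up glucose mainly through GLUT3 (Slc2a3), and glial and endothelial cells through GLUT1 (Slc2a1).

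None of the 30 members tested differed between knockdown and control at an adjusted p under 0.05 (edgeR's quasi-likelihood test, Benjamini-Hochberg adjustment over all 17439 genes tested). The same test called 0 of all genes (0%), while 191 genes (1.10%) had an unadjusted p under 0.05, and 0 members did. Of the 30 members, 13 had a log2 fold change above 0 and 17 below, with a median of -0.02 beside -0.01 over all genes tested. The knockdown and control libraries did not overlap for 1 member, Bnip3l, against 907 of all genes tested (5.20%). The carbonic anhydrase gene Car9 was not tested, with 5, 1 and 4 counts in the controls and 4, 4 and 2 in the knockdown libraries.

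The width of the intervals sets what these libraries could have shown. For 26 of the 30 members (86.7%) the whole 95% interval of the fold change lay within 1.5-fold in either direction, beside 65.0% of all genes tested. Where the mean level was 1 CPM or more, the share was 26 of 28 members (92.9%), beside 78.2% of all such genes. Within 2-fold it was 27 of 28 members (96.4%), beside 95.7%. The 4 members whose intervals passed 1.5-fold were Gapdh, from -0.61 to 0.16 on the log2 scale, Slc16a3, from -1.10 to 0.77, and the sparse genes Adm, from -1.67 to 0.13, and Ankrd37, from -1.02 to 0.78.

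**Figure D1:**
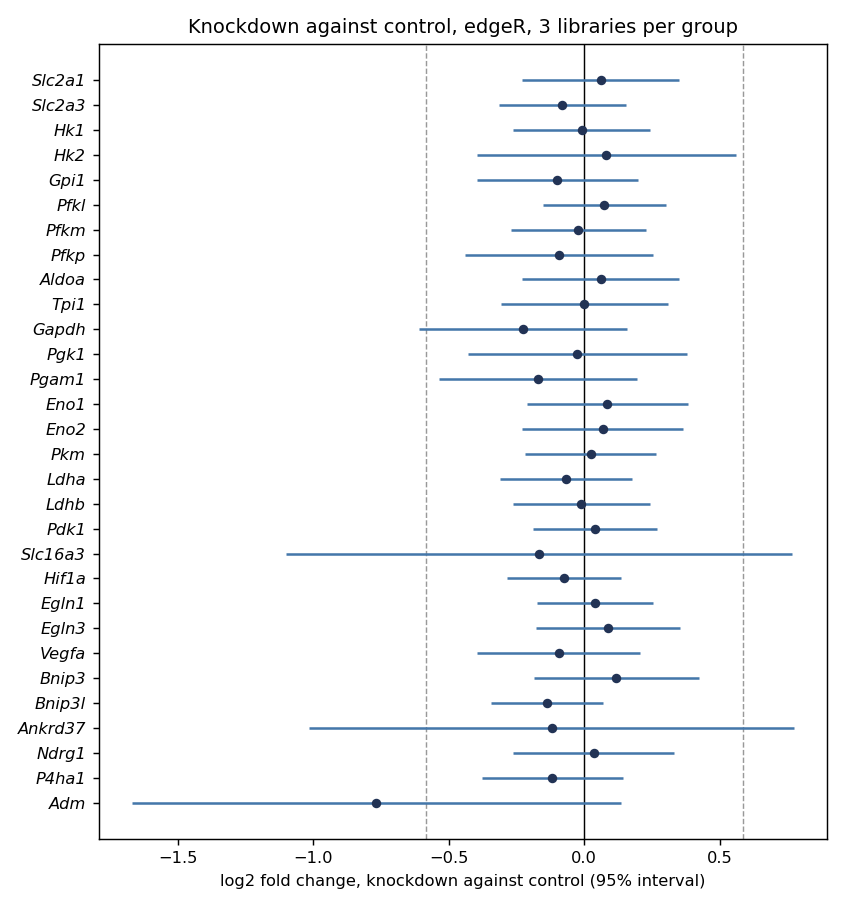
Log2 fold change of each tested member, knockdown against control, with its 95% interval from the edgeR fit; the x axis is in log2 units and members are ordered by role. Every interval crosses 0, and the widest belong to Slc16a3, Adm and Ankrd37, which have few counts.

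Levels were compared between genes in FPKM, fragments scaled to the length of the transcript and to the library, since counts grow with the length of a transcript. Aldoa (aldolase A, which splits the sugar), Gapdh (the dehydrogenase that follows) and Pkm (pyruvate kinase, the last step) were the most abundant members, with means over 6 libraries of 169, 168 and 156 FPKM. Their ranges over the libraries overlapped: Aldoa ran from 141 to 205 FPKM, Gapdh from 106 to 239 and Pkm from 137 to 180.1, so the order of these 3 is not fixed by the data. Eno1 (enolase 1) followed with a mean of 129 FPKM, summed over 2 entries, and Pgam1 (phosphoglycerate mutase) with 106. The ranges of these genes over the libraries also overlapped.

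**Figure D2:**
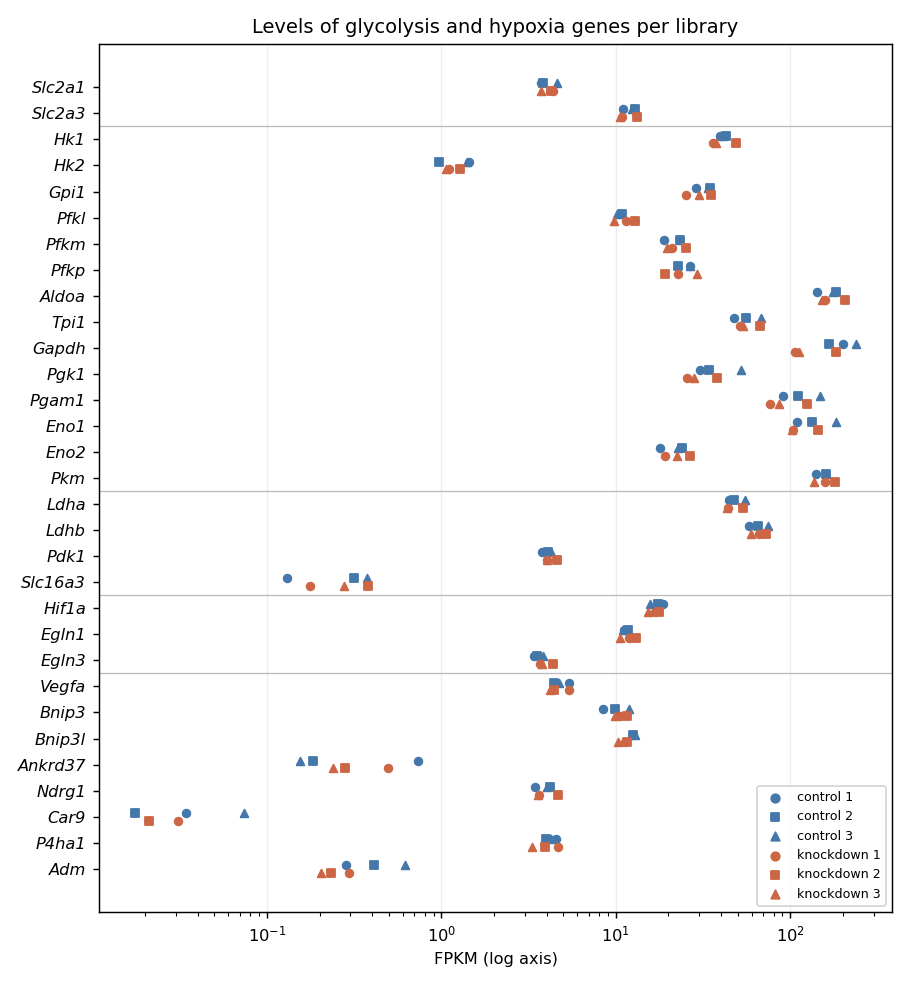
FPKM of the 31 members in each of the 6 libraries, on a log axis, ordered by role and with control and knockdown libraries marked. The abundant enzymes lie above 100 FPKM, Hif1a at 16.9 and the targets Ankrd37, Adm and Car9 under 1 FPKM, and the marks of the groups overlap for most members, though not for Bnip3l.

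The middle of the range held Ldhb at a mean of 65.7 FPKM, Tpi1 (triose phosphate isomerase) at 57.1, Ldha at 48.0, Hk1 at 40.9, Pgk1 (phosphoglycerate kinase) at 34.6 and Gpi1 (glucose-6-phosphate isomerase) at 31.2. Each of these overlapped the next in its range over the libraries, while the highest library of Ldhb (74.6 FPKM) was below the lowest of Pgam1 (76.7). Pfkp, Eno2 and Pfkm lay between 17.97 and 29.3 FPKM and overlapped each other, and Hif1a, from 15.3 to 18.6, overlapped Eno2 but lay below Pfkp and Pfkm. Bnip3l, Slc2a3, Egln1, Pfkl and Bnip3 formed an overlapping group with means of 11.8, 11.8, 11.5, 10.9 and 10.4 FPKM. The next group, with means from 4.75 FPKM (Vegfa) to 3.76 (Egln3), also held Pdk1, P4ha1, Slc2a1 and Ndrg1, and none of its libraries reached those of the group above. Hk2 followed at 1.21. Below 1 FPKM on average were the target genes Ankrd37 (0.35), Adm (0.34) and Car9 (0.03) and the lactate exporter gene Slc16a3 (0.27). Car9 is listed at 0 FPKM in knockdown replicate 3, where the count table has 2 counts.

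Glucose enters cells through the transporters, and both were present without a called difference. Slc2a3 (GLUT3) had 79.8, 94.8 and 89.99 CPM in the controls and 78.7, 92.7 and 78.9 CPM in the knockdown libraries. The groups overlapped, and the log2 fold change was -0.08 ± 0.11 (SE). Slc2a1 (GLUT1) had 16.4, 18.1 and 21.2 CPM in the controls and 20.7, 19.96 and 17.3 CPM in the knockdown libraries. It overlapped too, at 0.06 ± 0.13. Per length, Slc2a3 was above Slc2a1 in all 6 libraries, with an FPKM ratio between 2.47 and 3.38 and a median of 2.89.

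Hexokinases trap glucose in the cell as its phosphate. Hk1, the main form in brain, had 297, 326 and 317 CPM in the controls and 275, 363 and 296 CPM in the knockdown libraries, with a log2 fold change of -0.01 ± 0.12 (SE). Hk2, the form that hypoxia and growth signals raise in many tissues, had 7.78, 5.28 and 5.00 CPM in the controls and 6.11, 5.31 and 7.72 CPM in the knockdown libraries, at 0.08 ± 0.22. The knockdown libraries of Hk1 ran from below to above all controls, and those of Hk2 lay within the range of the controls. The FPKM ratio of Hk2 to Hk1 was between 0.0226 and 0.0367 in the 6 libraries. These values sum 2 FPKM entries of Hk2, and with the entry on the chromosome alone the ratio was between 0.0143 and 0.0225.

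Phosphofructokinase, which commits sugar to glycolysis, is a tetramer of liver (Pfkl), muscle (Pfkm) and platelet (Pfkp) subunits, and all were expressed. Pfkm had a mean of 21.8 FPKM, Pfkp 24.5 and Pfkl 10.9. Pfkl was below Pfkm in every library, at a ratio between 0.437 and 0.563. By FPKM the ratio of Pfkp to Pfkm lay on both sides of 1. It ran from 0.760 in knockdown replicate 2 to 1.502 in knockdown replicate 3, which spanned the range of all 6 libraries. By counts per kilobase Pfkp was above Pfkm in all 6 libraries, with means of 118 and 46.3. In the counts Pfkp had 524, 454 and 537 CPM in the controls and 451, 370.1 and 599 CPM in the knockdown libraries. Its log2 fold change was -0.09 ± 0.16 and, without knockdown replicate 3, -0.29. The level of Pfkp from counts (per kilobase) was 477% of its FPKM, against at most 220.5% for the other members with at least 1 FPKM. Its level is therefore uncertain. Pfkp overlaps the gene Pitrm1 in the annotation, and 15 members overlap some other gene. The part of the overlap in this gap was not tested.

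The enzymes of the other steps gave the same picture. Aldoa had 367, 483 and 473 CPM in the controls and 434, 528 and 418 CPM in the knockdown libraries. Pkm had 514, 587 and 600.0 CPM in the controls and 581, 630.0 and 519 CPM in the knockdown libraries. The log2 fold changes were 0.06 ± 0.13 and 0.02 ± 0.11 (SE), with both groups overlapping. Gene counts do not separate the M1 and M2 splice forms of Pkm. Over the 14 enzymes, 7 had a log2 fold change above 0 and 7 below, from -0.23 (Gapdh) to 0.09 (Eno1), with a median of -0.00450. Tpi1 had 0.00 ± 0.14, Gpi1 -0.10 ± 0.13, Pgam1 -0.17 ± 0.17 and Pgk1 -0.03 ± 0.18.

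**Figure D3:**
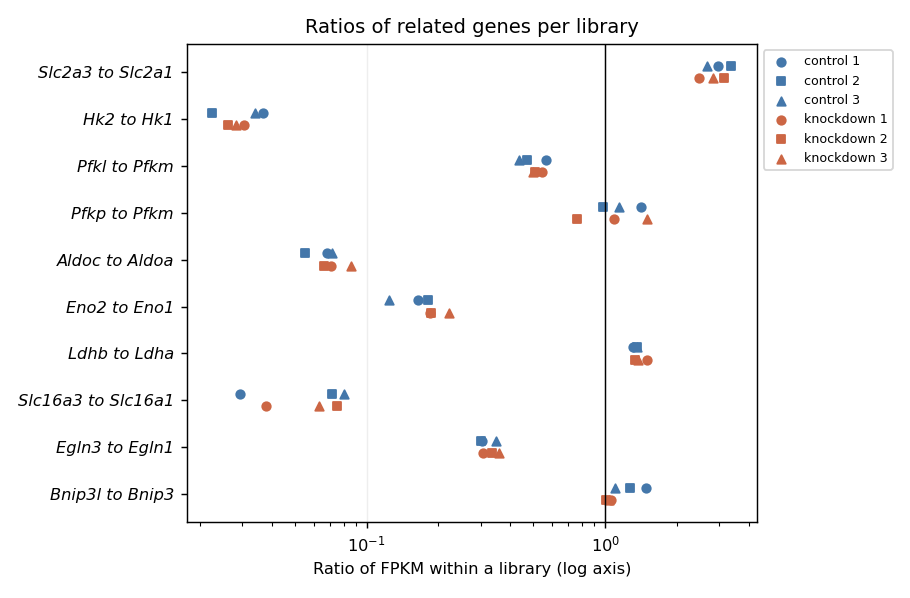
Ratio of the FPKM of paired isozymes in each of the 6 libraries, on a log axis, with control and knockdown libraries marked. By FPKM, Slc2a3, Ldhb and Bnip3l are above their partners in all 6 libraries, Bnip3l only slightly in the knockdown group. Hk2, Pfkl, Aldoc, Eno2, Egln3 and Slc16a3 are below theirs by FPKM.

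In all, 10 isozyme or family pairs were compared as log2 ratios of FPKM within a library, by a two-sided exact permutation test of control against knockdown with Benjamini-Hochberg adjustment over the 10 pairs. With 3 libraries against 3 the smallest p is 0.1, and 0 of 10 pairs were called, since none could be. For 2 pairs the groups did not overlap by FPKM. For any pair this is the arrangement with an exact permutation p of 0.1, the share of relabellings that give it. From counts the groups overlapped for both pairs. The log2 ratio of Eno2, the neuronal enolase, to Eno1, the general form, was 0.34 higher in the knockdown libraries (exact permutation p = 0.1, adjusted p = 0.50). By library the ratio was 0.165, 0.181 and 0.124 in the controls and 0.184, 0.186 and 0.221 in the knockdown libraries. These values sum 2 FPKM entries of Eno1, and with the entry on the chromosome alone the ratio was between 0.157 and 0.286. From the counts the groups overlapped and the difference was -0.02 (exact permutation p = 0.9), so the direction depended on which deposited table was read.

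For Eno2 the level from counts per kilobase was 186% of the FPKM (median over 6 libraries), and for Eno1 it was 42.2%. Eno2 stood closer to Eno1 by counts per kilobase, with means of 40.5 and 56.2, than by FPKM, with means of 22.1 and 129. Eno1 had 89.6, 112 and 130.3 CPM in the controls and 119, 127 and 106 CPM in the knockdown libraries, with a log2 fold change of 0.09 ± 0.13 (SE). By FPKM it had 109, 132 and 183 in the controls and 104, 143 and 102 in the knockdown libraries, and limma on log2(FPKM + 0.1) gave -0.27. Eno2 had 90.3, 124 and 117 CPM in the controls and 100.4, 128 and 119 CPM in the knockdown libraries, at 0.07 ± 0.13. The Bnip3l to Bnip3 ratio is described with the hypoxia targets.

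For 4 enzymes the level from counts was well below the FPKM. Each member's transcript was set against all GENCODE M21 transcripts (GRCm38). A window of 150 bases, the length of 1 read, occurred letter for letter in another gene for 74.0% of windows in Gapdh, 66.1% in Pgk1, 49.0% in Eno1 and 37.9% in Pgam1. Pkm, Bnip3 and Bnip3l shared at most 9.71% of their windows, and for 24 members no such window was found. When stretches at 98% identity or more were counted in place of exact windows, Ldhb (76.8% of bases), Pkm (65.5%), Bnip3 (48.8%), Gpi1 (36.3%) and Bnip3l (34.7%) also shared sequence with other genes. Levels from counts, per kilobase and scaled to the library, were 2.81% of the FPKM for Gapdh, 12.7% for Pgam1, 42.2% for Eno1 and 54.9% for Pgk1 (medians over 6 libraries). For the 23 other members with at least 1 FPKM they were between 97.3% and 477%, with a median of 173%, among them Ldhb at 163% and Pkm at 151%. Of their exact windows of 150 bases, Ldhb shared 0% and Pkm 2.01% with other genes. How the authors' counting treated reads that match several places is a setting not given in the sources used here. Its part in the gap was not tested.

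**Figure D4:**
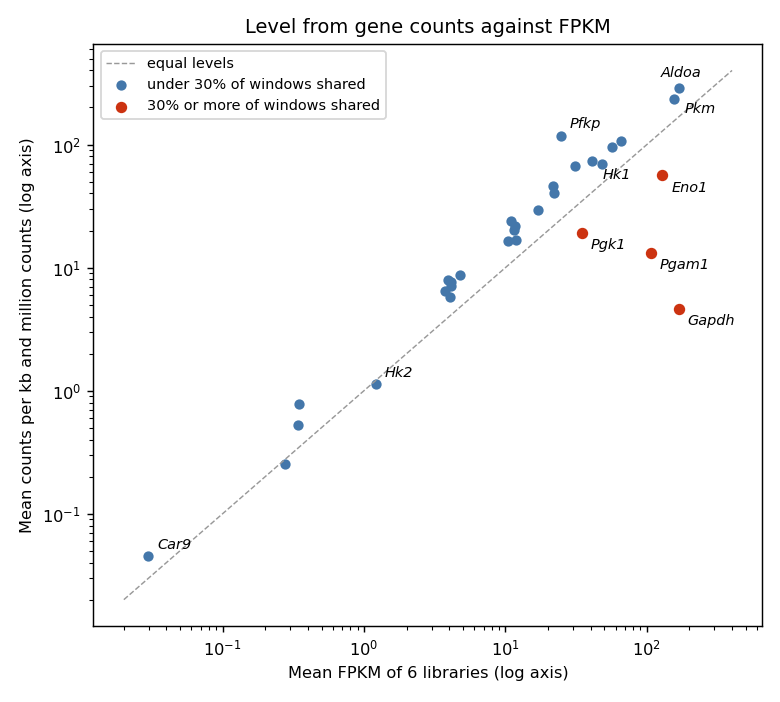
Mean level from counts, per kilobase and scaled to the library, against mean FPKM over 6 libraries, 1 point a member, both axes logarithmic; the dashed line marks equal levels. Gapdh, Pgam1, Eno1 and Pgk1, in which at least 30% of read-length windows are shared with other genes, lie below the line, Hk2 lies at it, and the other members with at least 1 FPKM lie above it.

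Gapdh is often used as a reference gene, and the gap was widest there. It lies on chromosome 6 from 125161852 to 125166467 (GRCm38, minus strand), and 154 genes elsewhere, 147 of them annotated as pseudogenes, match at least 50% of its transcript at 90% identity or more. The stretch below is shown as an example of such shared sequence. It is bases 738 to 887 of the Gapdh coding sequence, 5′ to 3′, from the GENCODE transcript, and 27 other genes, 26 of them pseudogenes, hold the same 150 letters.

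Gapdh: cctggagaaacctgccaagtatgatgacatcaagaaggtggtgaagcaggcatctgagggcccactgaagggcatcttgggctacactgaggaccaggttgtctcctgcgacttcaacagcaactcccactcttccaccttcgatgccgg

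In the count tables Gapdh had 6.25, 7.18 and 7.73 CPM in the controls and 6.04, 6.91 and 5.14 CPM in the knockdown libraries, with a log2 fold change of -0.23 ± 0.17 (SE). By FPKM it had 201, 167 and 239 in the controls and 106, 182 and 112 in the knockdown libraries. Knockdown replicate 2 lay among the controls on both scales. Limma on log2(FPKM + 0.1) gave -0.63 with an unadjusted p of 0.0428 and an adjusted p of 1.00, so the size of the difference moved by more than 1.5 times between the tables while neither called it. Pgk1 moved likewise, with -0.03 from counts and -0.33 from FPKM. Its FPKM was 30.3, 34.2 and 52.0 in the controls, against 25.7, 37.8 and 27.9 with the knockdown, and its groups overlapped on both scales.

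Pyruvate is turned into lactate by lactate dehydrogenase, whose subunits are encoded by Ldha, the form that favours lactate production, and Ldhb, the form common in neurons and heart. Ldha had 118, 126 and 145 CPM in the controls and 117, 137 and 117 CPM in the knockdown libraries. Ldhb had 123, 136 and 161 CPM in the controls and 143, 146 and 127 CPM in the knockdown libraries. Control replicate 3 was the highest library for both, and the log2 fold changes were -0.07 ± 0.11 and -0.01 ± 0.11 (SE). Per length Ldhb was above Ldha in all 6 libraries, with a ratio between 1.30 and 1.501 and a median of 1.36.

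Pdk1, one of the kinases that act on pyruvate dehydrogenase, is a hypoxia target. It had a narrow range, from 36.7 CPM in control replicate 1 to 42.6 CPM in knockdown replicate 2. The log2 fold change of Pdk1 was 0.04 ± 0.10. Slc16a3 (MCT4), an exporter of lactate in cells that rely on glycolysis, had 0.512, 1.29 and 1.69 CPM in the controls and 0.758, 1.22 and 1.10 CPM in the knockdown libraries. Per length it stood at between 0.0295 and 0.0807 of the general transporter Slc16a1. Its log2 fold change was -0.17 ± 0.42, with an interval that passed 1.5-fold in both directions. The controls alone ran from 0.512 to 1.69 CPM, so a change of 1.5-fold could not be told from none.

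Hif1a, which encodes the oxygen-regulated subunit of the hypoxia factor and lies on chromosome 12 from 73901324 to 73947554 (GRCm38), had 155, 145 and 131 CPM in the controls and 137, 140.0 and 133 CPM in the knockdown libraries. All 3 knockdown libraries lay within the range of the controls, and the log2 fold change was -0.07 ± 0.10 (SE). Its mean was 16.9 FPKM, above that of the related factor gene Epas1 (1.56 FPKM). Of its partner genes, Arnt2, the form common in neurons, had a mean of 36.3 FPKM and Arnt 3.40. The hydroxylase genes Egln1 and Egln3, the latter itself a hypoxia target, had means of 11.5 and 3.76 FPKM, and their ratio, Egln3 to Egln1, lay between 0.301 and 0.358. Their log2 fold changes were 0.04 ± 0.10 and 0.09 ± 0.12.

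The promoters of these genes were searched for the core of the motif that HIF binds, ACGTG or GCGTG, on both strands (CACGT or CACGC on the other), in the 250 bases before each RefSeq start (GRCm38.p6). The table matched 28 of the 31 members; those without an entry were Slc2a3, Ndrg1 and Bnip3l. Of 40 windows of members, 31 (77.5%) held a match, beside 12679 of 32851 windows of all genes (38.6%). The share was 22 of 30 windows of glycolysis members (73.3%) and 9 of 10 of hypoxia members (90%). The members' windows were also richer in G and C, at 60.8% against 53.2%, and a match is a description of letters and not a binding site. Below are 60-base stretches, 5′ to 3′ on the gene's strand, with matches in capitals. Overlapping matches run together, so that CACGTG holds a match on each strand. The first 5 are from genes expressed in these cultures, and the last 3 from genes near the floor of detection.

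Ldha: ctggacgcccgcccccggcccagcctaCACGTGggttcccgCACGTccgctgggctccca
Bnip3: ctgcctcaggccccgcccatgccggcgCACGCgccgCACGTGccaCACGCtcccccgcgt
Pgk1: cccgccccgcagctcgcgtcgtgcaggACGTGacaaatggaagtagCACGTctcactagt
Slc2a1: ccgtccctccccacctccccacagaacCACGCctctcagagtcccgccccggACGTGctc
Hif1a: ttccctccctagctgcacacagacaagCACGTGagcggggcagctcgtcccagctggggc
Slc16a3: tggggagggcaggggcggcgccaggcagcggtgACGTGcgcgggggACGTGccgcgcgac
Ankrd37: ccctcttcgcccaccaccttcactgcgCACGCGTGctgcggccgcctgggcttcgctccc
Car9: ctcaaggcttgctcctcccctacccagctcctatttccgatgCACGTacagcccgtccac

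These stretches lie at chr7:46845729-46845788 (plus strand) for Ldha, chr7:138909591-138909650 (minus) for Bnip3, chrX:106186923-106186982 (plus) for Pgk1 and chr4:119108657-119108716 (plus) for Slc2a1. Those of Hif1a, Slc16a3, Ankrd37 and Car9 lie at chr12:73907705-73907764 (plus), chr11:120949007-120949066 (plus), chr8:45999973-46000032 (minus) and chr4:43506966-43507025 (plus). Bnip3 has 4 matches in its stretch and a mean of 10.4 FPKM, Ankrd37 has 2 and 0.35 FPKM, and Car9 has 1 and 0.03 FPKM. Over its 250 bases Ankrd37 has 2 matches of each motif, and Slc16a3, at 0.27 FPKM, has 2 in its stretch. Tpi1 (57.1 FPKM) and Gpi1 (31.2 FPKM) have 0 matches. A relation between matches and level was not tested. Members with a match ranged in level from Aldoa (169 FPKM) to Car9.

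The other hypoxia targets had 2 log2 fold changes above 0 and 5 below among the 7 tested, with a median of -0.12. Bnip3 and Bnip3l encode related receptors that lead mitochondria to autophagy. Bnip3l (chromosome 14, 66985238 to 67008877, GRCm38) had 56.5, 58.5 and 55.6 CPM in the controls and 53.2, 52.3 and 49.7 CPM in the knockdown libraries. Every knockdown library was below every control library, which held for 510 of all genes tested (2.92%), while the reverse held for 397 (2.28%) and for 0 members. The log2 fold change of Bnip3l was -0.14 ± 0.09 (SE), with an unadjusted p of 0.173 and an adjusted p of 1.00 by edgeR.

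Bnip3 had 23.6, 26.2 and 32.95 CPM in the controls and 29.9, 32.3 and 27.4 CPM in the knockdown libraries, at 0.12 ± 0.14. The log2 FPKM ratio of Bnip3l to Bnip3 differed by -0.30, knockdown minus control (exact permutation p = 0.1, adjusted p = 0.50), and the groups did not overlap. The ratio was 1.48, 1.27 and 1.10 in the controls and 1.06, 1.01 and 1.04 in the knockdown libraries. From counts the difference was -0.26 and the groups overlapped (exact permutation p = 0.3). Which of the genes was higher also depended on the scale. By counts per kilobase Bnip3l was below Bnip3 in control replicate 3 (17.4 against 19.1) and in every knockdown library. The means over all libraries were 16.7 for Bnip3l and 16.4 for Bnip3.

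Adm, which encodes the vessel-widening peptide adrenomedullin and is a sensitive hypoxia target, had the smallest p of the members. It lies on chromosome 7 from 110627657 to 110629820 (GRCm38) and had 0.561, 0.834 and 1.403 CPM in the controls and 0.620, 0.435 and 0.550 CPM in the knockdown libraries, which are 23, 33 and 39 counts and 27, 15 and 23 counts. The groups overlapped, since knockdown replicate 1 was above control replicate 1. Its log2 fold change was -0.77 ± 0.41 (SE), with an unadjusted p of 0.0881 and an adjusted p of 1.00 by edgeR. It was -0.37 without control replicate 3 and -1.03 without control replicate 1.

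Vegfa, the growth factor for blood vessels, had 34.1, 28.9 and 29.5 CPM in the controls and 34.4, 25.6 and 26.6 CPM in the knockdown libraries. Replicate 1 was the highest library in each group, and the log2 fold change was -0.09 ± 0.14 (SE). Ankrd37, a short ankyrin repeat gene, had 1.10, 0.657 and 0.504 CPM in the controls and 0.965, 0.580 and 0.550 CPM in the knockdown libraries, again with replicate 1 highest in each group, at -0.12 ± 0.41. Ndrg1, a stress-induced gene, had 0.03 ± 0.14, and P4ha1, a subunit of the collagen prolyl hydroxylase, -0.12 ± 0.12. The median of the hypoxia members was -0.08 over 10 genes, and it was -0.01 without control replicate 1 and 0.0074 without knockdown replicate 3. Over the 8 of them with at least 1 CPM in 3 libraries, which leaves out Adm and Ankrd37, it was -0.02, as it was by limma on log2(FPKM + 0.1) with a mean FPKM of at least 0.5. The median of the 20 glycolysis members was -0.01 and took both signs as single libraries were left out, from -0.07 to 0.07.

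Many enzymes had their lowest and their highest level in the same libraries. Control replicate 1 was the lowest of the 6 libraries for 7 of the 14 enzymes (Aldoa, Eno1, Eno2, Pfkm, Pgk1, Pkm and Tpi1), and knockdown replicate 1 for 3 (Gpi1, Hk1 and Pgam1). Knockdown replicate 2 was the highest for 6 and control replicate 3 for 5. The number of enzymes above their own mean was 3, 8 and 11 in the controls and 3, 12 and 5 in the knockdown libraries. The median deviation of the enzymes was -0.15, 0.03 and 0.08 log2 units in the controls and -0.12, 0.16 and -0.09 in the knockdown libraries. The size of these shifts between libraries of a group was larger than the median difference between the groups.

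**Figure D5:**
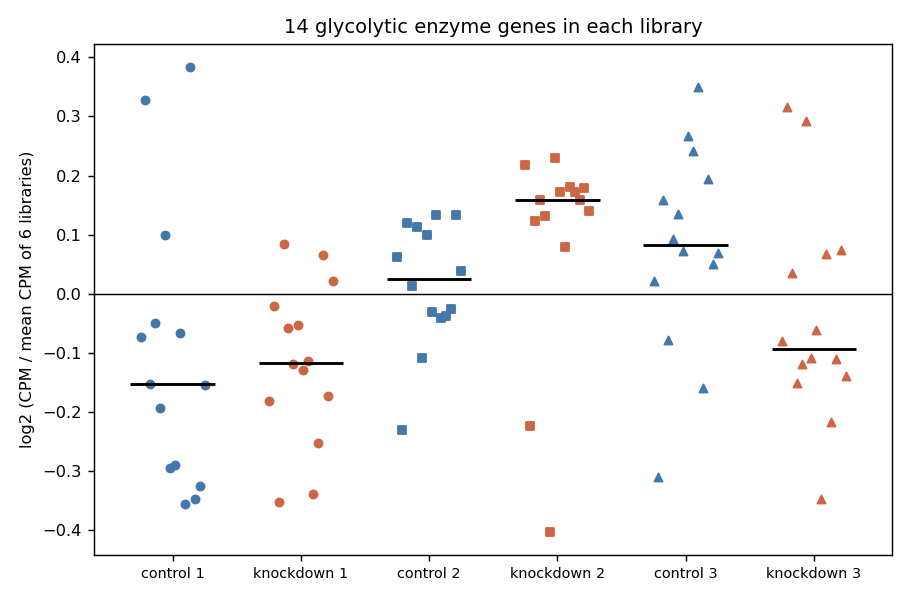
Deviation of each of the 14 glycolytic enzymes from its own mean over 6 libraries, in log2 CPM units, with a library on each position of the x axis and a bar at the median. Most enzymes lie below 0 in replicate 1 of both groups and above 0 in control replicate 3 and knockdown replicate 2.

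Markers of cell types also differed between the libraries. The summed level of 7 markers of the oligodendrocyte lineage was between 287 and 449 CPM in the controls and between 281 and 358 CPM in the knockdown libraries. That of 7 markers of mural and meningeal cells was between 93.9 and 142 CPM and between 96.2 and 148 CPM, and was highest in replicate 2 of each group. General neuronal markers (7 genes) summed to between 4320 and 4493 CPM and between 3841 and 4825 CPM, lowest in knockdown replicate 1 and highest in knockdown replicate 2. The microglial marker Aif1 and the endothelial marker Cldn5 were listed at 0 in all 6 libraries. Of the 9 marker lists read, that of microglia and macrophages (7 genes, 5 tested) had a summed level that did not overlap between the groups, at 16.5 to 18.5 CPM in the controls and 14.8 to 15.7 CPM in the knockdown libraries. Markers of dividing cells had 6 of 6 log2 fold changes below 0 (median -0.30), and summed to between 186 and 293 CPM in the controls and between 183 and 206 CPM in the knockdown libraries. Those of the oligodendrocyte lineage had 7 of 7 below 0 (median -0.27), and those of red blood cells 3 of 3 tested above 0 (median 0.29). None of these markers was called by edgeR. An unadjusted p under 0.05 by edgeR was found for 2 of 6 markers of dividing cells and 2 of 5 tested of microglia and macrophages. The same held for 1 of 7 markers of the oligodendrocyte lineage and 1 of 6 tested of mural and meningeal cells. The mural and meningeal list had a median of 0.11. The other lists had 0 such markers, and the share over all genes tested was 1.10%. Over all genes tested, 8390 log2 fold changes were above 0 and 9049 below. The part of cell makeup in the shifts of the enzymes or in the values of Bnip3l was not tested.

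Values were also read by replicate number, with a fit that held group and number. The numbers differed for 27 of 17439 genes (0.155%) at an adjusted p under 0.05 by edgeR's quasi-likelihood F test, and for 0 of 30 members, of which the smallest adjusted p was 0.386 (Pgk1). At an unadjusted p under 0.05 there were 4 members (Pgk1, Eno2, Gpi1 and Pfkp) of 30, beside 1559 of all genes (8.94%). Without control replicate 3, the shallowest library, the test called 524 genes and 1 member, Pfkp (adjusted p = 0.0304 by edgeR). Leaving out any other library gave between 45 and 290 genes and 0 members.

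For 17 of the 30 members both libraries of a number were the highest or the lowest of the 6, beside 7731 of all genes tested (44.3%). Each gene was counted once, and where 1 number was highest it was counted there, even if another was lowest. Eno2, highest in number 2 and lowest in number 1, and Ankrd37, highest in number 1 and lowest in number 3, are such genes. The counts and shares of lowest numbers given here leave such genes out. Number 2 was highest for 7 members (10.1% of all genes), which were Slc2a3, Hk1, Pfkm, Aldoa, Eno2, Egln1 and Ndrg1. Number 1 was counted as lowest for 4 (6.30%), which were Gpi1, Tpi1, Pgk1 and Slc16a3. It was highest for 3 (10.1%), the targets Vegfa, Ankrd37 and P4ha1. Number 3 was counted as lowest for 2 (4.12%), Pfkl and Hif1a, and was highest for 1 (7.46%), Pfkp. Number 2 was counted as lowest for 0 members (6.28%). Pgk1, for which number 1 was lowest, had 27.2 and 27.5 CPM in the libraries numbered 1, 33.8 and 39.4 in those numbered 2 and 44.3 and 36.4 in those numbered 3. Gpi1 had 173 and 151 CPM, 209 and 209.6 CPM and 215 and 197 CPM in the same order.

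Other genes of the pathways were read from lists of glycolysis and pyruvate genes (30 listed, 25 tested) and of hypoxia regulators and targets (34 listed, 33 in the tables, 31 tested). None was called between the groups in either list. In the first, 12 had a log2 fold change above 0 and 13 below, with a median of -0.00348, and in the second 18 and 13, with a median of 0.02. Aldoc, the aldolase of brain astrocytes, had 45.5, 47.8 and 58.3 CPM in the controls and 53.3, 61.3 and 62.3 CPM in the knockdown libraries, with a log2 fold change of 0.22 ± 0.12 (SE). The groups overlapped. Per length it was between 0.0553 and 0.0856 of Aldoa.

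The other genes with the smallest p for the group in these lists are given as values. Pdhb, a subunit of pyruvate dehydrogenase, had 75.9, 76.4 and 91.8 CPM in the controls and 73.35, 75.1 and 69.9 CPM in the knockdown libraries, at -0.16 ± 0.10, and its groups did not overlap. Mpc1, a subunit of the mitochondrial pyruvate carrier, had -0.22 ± 0.17 and the hexokinase gene Hk3 -0.25 ± 0.23. Hif1an, the asparagine hydroxylase that blocks the activity of HIF-1alpha, had 73.6, 77.3 and 79.3 CPM in the controls and 88.3, 83.7 and 80.6 CPM in the knockdown libraries, at 0.13 ± 0.09, again without overlap. Hif3a, an inhibitory relative of Hif1a, had -0.35 ± 0.25, the HIF inhibitor gene Cited2 -0.16 ± 0.13 and the lysyl oxidase relative Loxl2 -0.18 ± 0.15.

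By replicate number 0 genes of these lists were called. Gbe1, the glycogen branching enzyme and a hypoxia target, had the smallest p, with 12.4 and 10.5 CPM in the libraries numbered 1, 16.6 and 15.8 in those numbered 2 and 20.7 and 17.2 in those numbered 3 (adjusted p = 0.216 by edgeR). Unadjusted p-values for the number were 0.0262 for Mpc1, 0.0564 for Lox, 0.0783 for Higd1a, 0.0819 for Cited2 and 0.0997 for Pdk2.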

How the data were processed

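RNA of 6 libraries was read from 1 count table and 1 FPKM table each. The deposited counts are whole numbers per gene, and the deposited FPKM values, per the file headers, are a Cufflinks gene table (Cufflinks 2.2.1, bcl2fastq 2.20 and GRCm38 per the submitters' processing notes, which also name DESeq2 without a version). Aligner, counting program and strand option were not given in the sources used here, and the counts of the 15 members that overlap another annotated gene are uncertain to that extent. The members and all gene lists were chosen with earlier results of these data known.

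Counts were fitted with edgeR 4.0.16 in R 4.3.3 (filterByExpr, TMM scaling, quasi-likelihood test, group alone as the design), with Benjamini-Hochberg adjustment over all genes tested and a threshold of 0.05. CPM values are TMM-scaled. FPKM entries of a symbol were summed (Eno1 and Hk2 have a second on an alternate sequence), and isozyme ratios were tested by exact permutation. Alternatives were other scalings and filters, DESeq2 1.42.0, limma 3.58.1 on log2 FPKM (pseudocount 0.1 or 1), a replicate block, and leaving out each library. The fit was tested on simulated data. Counts of no pair of libraries in a group agreed within sampling noise.

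Shared sequence was searched with BLAST 2.17.0, for the longest protein-coding transcript of each gene. That choice of transcript, the line of 30% of windows shared, the summing of entries and 2 of the alternatives were made after values had been seen. Every member is accounted for. Libraries are given in full for the members with the smallest p for the group, those with the largest range over replicate numbers, isozyme pairs and the most abundant per length; of the other pathway genes, up to 4 a list with the smallest p for the group and up to 4 with the smallest p for the number at 1 CPM or more are named, except that some are not reported here.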

Additional observations from a re-analysis of the deposited data

How the results depend on the processing

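Under the alternatives tried, 0 members were called between the groups. The same held for 0 isozyme ratios, of which none could be called in any setting. Over all genes, the main test called 0, edgeR without a filter on low counts 11 and DESeq2 1, with 588 and 175 genes at an unadjusted p under 0.05. The median of the hypoxia members ranged from -0.12 to 0.0074 as single libraries were left out. The count of genes that differed by replicate number was 741 without the filter and 225 by DESeq2's likelihood ratio test, against 27, and 45 to 524 with 1 library left out. Without the filter 2 members, Pfkp and Pgk1, were among them, and with 1 library left out 0 to 1. The cause was not tested. Of the 442 values of single members under alternatives, 432 moved by less than their spread and 10 by more, and 20 of the 30 members had the opposite sign at least once (53 values), none of them called.

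With the replicate number as a block, 0 genes and 0 members were called (258 genes at an unadjusted p under 0.05), the medians were -0.0094 and -0.08 for the glycolysis and hypoxia members, and 0 isozyme ratios were called. The deviations of same-numbered libraries correlated at r = 0.22, 0.23 and 0.04 across genes, and the libraries numbered 3 did not correlate best with each other, so the numbers were not treated as pairs, and what they share is not known. Car9, Adm, Ankrd37 and Slc16a3 had few counts, which limits what can be said of them. The levels of Gapdh, Pgam1, Pgk1 and Eno1 differ between the count and FPKM tables. The exact permutation tests cannot go below p = 0.1, or below 0.25 with the block, so the 0 isozyme ratios called carry no information.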

Other observations

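Genes around the members showed which other forms of the same enzymes were present. Of the hexokinase genes, Hk2 had a mean of 1.21 FPKM over 6 libraries, with a range from 0.964 to 1.44. Hk3 had a mean of 0.70 FPKM and Hkdc1 of 0.31, and these 3 were far below Hk1 at 40.9. Among the genes of the bifunctional enzymes that set the activator of phosphofructokinase, Pfkfb3 had a mean of 10.6 FPKM, with 10.04 to 11.2 over the libraries, above Pfkfb2 at 5.89 and Pfkfb4 at 4.90. The kinases that act on pyruvate dehydrogenase were close, with means of 4.12 FPKM for Pdk1, 3.24 for Pdk3 and 2.93 for Pdk2. Egln2, the hydroxylase gene that is not among the members, had a mean of 23.2 FPKM, and its range of 19.7 to 26.9 lay above that of Egln1, 10.5 to 13.0. Vhl, which encodes the protein that recognises hydroxylated HIF-1alpha, had 14.3 FPKM.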
